A study of Mus musculus with 6 samples.

Results

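Aminoacyl-tRNA synthetases join each amino acid to its own transfer RNA, and 39 mouse genes of this family were followed here on 6 arrays of gonadal somatic cells and embryonic stem cells. The genes were taken by name alone. A probe counted when the transcript it names belongs to a gene whose symbol is a capital letter followed by ars, with 1, 2 or nothing after it, or to Farsa, Farsb, Eprs, Ears2, Aimp1 or Aimp2. This gave 39 genes on 48 probes, out of 19751 genes with a symbol on the array. Of the 39 genes, 18 encode cytosolic enzymes, 2 (Gars and Kars) encode enzymes that serve both the cytosol and the mitochondrion, 17 encode mitochondrial enzymes, and 2 (Aimp1 and Aimp2) encode scaffold proteins that are not enzymes.

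Cells of mammals run a pair of translation systems. Most amino acids therefore have a nuclear gene for a cytosolic enzyme and a separate nuclear gene, whose symbol ends in 2, for an enzyme that is imported into the mitochondrion and charges the tRNAs encoded by mitochondrial DNA. Several cytosolic enzymes are held together with scaffold proteins in the multisynthetase complex. Many cytosolic synthetase genes are known targets of ATF4, the transcription factor of the response to amino acid shortage, which acts through a short promoter element called CARE (C/EBP-ATF response element).

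The study is on energy metabolism in primordial germ cells, the precursors of eggs and sperm, and its arrays hold 3 samples of each of 2 cell types. The soma group is somatic cells of the genital ridges of male E13.5 embryos, from MCH x C57BL6/J animals with the transgene written Oct5<delta>PE-GFP. The ESC group is the male line VR15 with the transgene Vasa::RFP, a reporter named for a germ cell gene. Both groups thus carry a fluorescent reporter, ESC is 1 line, and the labels name the samples of each group biological replicates. The way somatic cells were separated from germ cells and the culture of the stem cells are not given in the sources used here.

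Each sample had its own 1-colour array. A value below is the log2 signal of a gene's brightest probe less the 75th percentile of its array, so that 0 is a probe at that percentile, and a difference is ESC minus soma. A probe's brightness depends on its own sequence, so levels of different genes are not compared. The 75th percentile of the signal was 1244.9 to 1388.3 on the soma arrays and 958.8 to 1015.7 on the ESC arrays. On each array 56.0% to 63.2% of probes stood well above background and no spot of a gene probe was saturated. Having 3 arrays per group limits the precision. The soma arrays were read in scans 1 and 2 and the ESC arrays in scan 3, which means that effects of scan and group cannot be told apart. Soma 3 shared a slide with the 3 ESC arrays, which allows a comparison within that slide.

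The labelled cell types were checked against their markers, as sums of signals relative to the 75th percentile. Pluripotency markers summed to 7.7 to 11 on soma and 354 to 380 on ESC arrays, with 10 of 10 higher in ESC and Fgf4 above background on no soma array. Sertoli cell markers went the other way, at 45.4 to 51.8 and 0.656 to 0.864, with 8 of 8 higher in soma and both Sox9 and Amh above background on no ESC array. Fetal Leydig (4 of 4 tested) and interstitial markers (5 of 5) were also higher in soma, at 78.8 to 80 against 3.04 to 3.48 and at 100 to 112 against 1.14 to 1.54. Markers of other cells were present in soma too. Blood markers, 5 of 5 tested higher in soma, summed to 804 to 852 there and 0.124 to 0.168 in ESC, and leukocyte markers, 4 of 4 tested, to 5.76 to 6.15 and 0.582 to 0.663. Endothelial markers (3 of 5 higher in soma, 1 in ESC) summed to 4.65 to 6.57 and 4.87 to 5.3, with Cdh5, Emcn and Tie1 above background on no ESC array. Germ cell markers, of which 2 of 6 were higher in soma and 2 in ESC, summed to 3.79 to 7.13 and 6.29 to 6.86, with Nanos2 above background on no ESC array. The part of these other cells in the synthetase results was not tested, and in such bulk samples fewer cells of a type and less RNA per cell cannot be told apart.

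The synthetase genes stood higher in ESC, and the cytosolic enzymes did so throughout. Of 38 members tested, 33 rose in ESC, 24 of these at least 2-fold, while 4 fell there and Fars2 did not pass. The same limma test, at an adjusted p under 0.05, called 84.9% of all 19673 genes in either direction, 46.6% up in ESC, 38.3% up in soma and 24.2% up in ESC with at least a 2-fold change. The median difference of the members was 1.41, beside 0.14 for all genes tested. In all 38 tested members the 3 ESC arrays lay on 1 side of the 3 soma arrays, which held for 87.1% of all genes. The remaining member, Nars2, the mitochondrial asparagine enzyme, was well above background on 1 of 3 soma arrays and on no ESC array, at -5.99, -4.98 and -5.51 in soma and -5.86, -5.29 and -5.84 in ESC, and it was not tested.

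**Figure D1:**
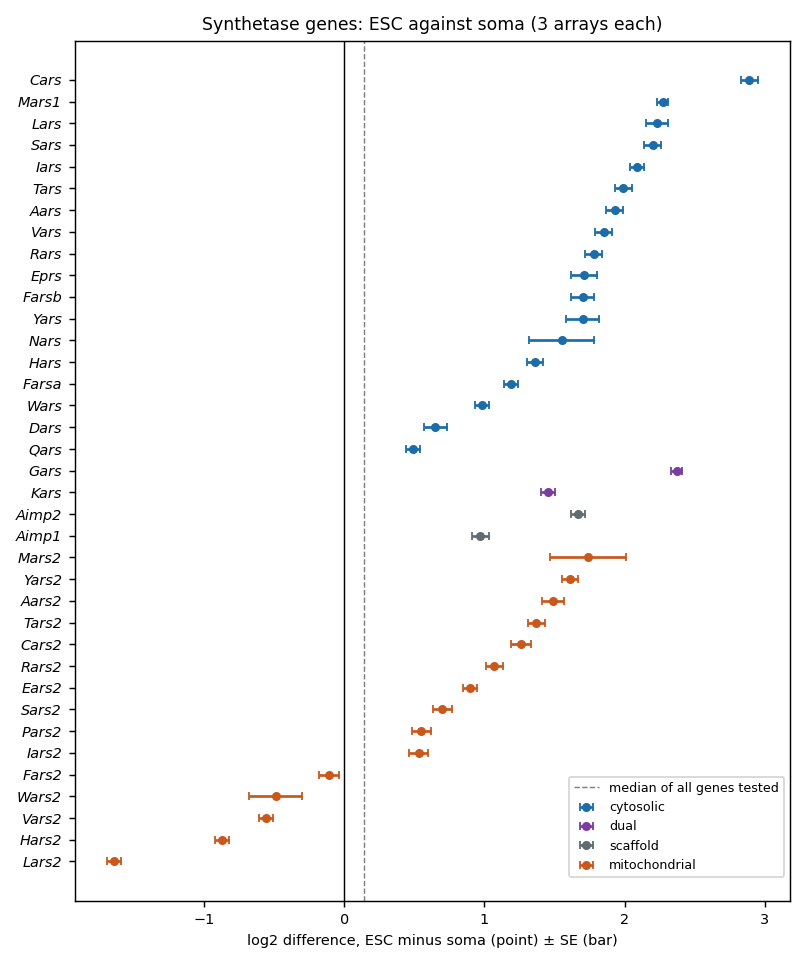
The log2 difference, ESC minus soma (x axis, point with a bar of 1 SE, 3 arrays in each group), for each tested gene reported by name (y axis), coloured by compartment, with a dashed line at the median of all genes, 0.14. All 18 cytosolic genes lie to the right of 0, between 0.49 and 2.89, while the mitochondrial genes run from -1.64 to 1.74; under quantile normalization Qars is at 0.01, and under scaling to the array median Fars2 is at 0.08.

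Among the cytosolic enzymes, 18 of 18 rose in ESC and 15 did so at least 2-fold, with a median difference of 1.75 (1.60 above the median of all genes). Cars, the cysteine enzyme, stood furthest apart. Its soma arrays read 2.04, 2.07 and 1.96 and its ESC arrays 4.98, 4.88 and 4.90, a 7.43-fold rise (difference 2.89 ± 0.06, SE, n = 3 per group, limma adjusted p 2.98e-07). The spread within either group, 0.06 and 0.05 (SD), was small beside that gap. Mars1, the methionine enzyme, which also charges the initiator tRNA of cytosolic translation, was at 0.05, 0.04 and 0.04 in soma and 2.34, 2.28 and 2.32 in ESC (2.27 ± 0.04, SE, limma adjusted p 3.18e-07).

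Lars, the leucine enzyme and a leucine sensor of the mTORC1 growth pathway, was at 2.43, 2.61 and 2.53 in soma and 4.84, 4.66 and 4.75 in ESC (2.23 ± 0.08, SE, limma adjusted p 1.45e-06). Sars, the serine enzyme, whose product also starts selenocysteine synthesis on its tRNA, was at 2.88, 2.79 and 2.93 against 5.09, 5.01 and 5.11 (2.20 ± 0.06, SE, limma adjusted p 7.26e-07). Both rose more than 4-fold, at 4.68 and 4.61, and the ESC arrays stood clear of the soma arrays. Iars, for isoleucine, was at 2.24, 2.26 and 2.30 against 4.34, 4.33 and 4.40 (2.09 ± 0.05, SE, limma adjusted p 4.72e-07). Tars, for threonine, was at 2.37, 2.33 and 2.28 against 4.42, 4.25 and 4.27 (1.99 ± 0.06, SE, limma adjusted p 1.28e-06). These 6 genes had the largest differences of the cytosolic group.

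Close behind was Aars, the alanine enzyme, at 2.40, 2.24 and 2.35 in soma and 4.31, 4.24 and 4.26 in ESC (1.93 ± 0.06, SE). The valine gene Vars rose 3.61-fold and the arginine gene Rars 3.43-fold. Eprs, a single protein that charges both glutamate and proline, rose 3.28-fold. The phenylalanine enzyme is built of an alpha and a beta subunit from separate genes: Farsb (beta) rose 3.25-fold, and Farsa (alpha) 2.28-fold by its brighter probe, from a soma mean of 2.04 to an ESC mean of 3.23, with a second probe that went from -0.44 to 0.79. Yars, for tyrosine, was dim on all arrays and rose 3.25-fold, from -3.64, -4.09 and -3.94 to -2.22, -2.13 and -2.21. Its difference of 1.70 was 1.19 under normexp background correction. Hars, for histidine, rose 2.56-fold.

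The smallest cytosolic rises were those of Qars, Dars and Wars. Qars, for glutamine, was at 3.63, 3.61 and 3.62 in soma and 4.10, 4.05 and 4.18 in ESC, a 1.41-fold rise (0.49 ± 0.05, SE, limma adjusted p 0.000193) that depended on the scaling: under quantile normalization it was 0.01 (adjusted p 0.835). Dars, for aspartate, rose 1.57-fold. Wars, for tryptophan, a gene also known as interferon-induced, was at 3.14, 3.08 and 3.13 against 4.06, 4.09 and 4.15 on its brighter probe (0.98 ± 0.05, SE, 1.97-fold). A dimmer Wars probe on another transcript gave a larger difference, with group means of -1.89 and 0.19.

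Nars, for asparagine, was uneven among the ESC arrays. Its values were 0.66, 0.68 and 0.79 in soma and 2.57, 2.49 and 1.72 in ESC, so that ESC 3 stood well below the other two but still above every soma array. The difference was 1.55 ± 0.23 (SE, n = 3 per group, limma adjusted p 0.00101), and 1.82 without ESC 3.

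**Figure D2:**
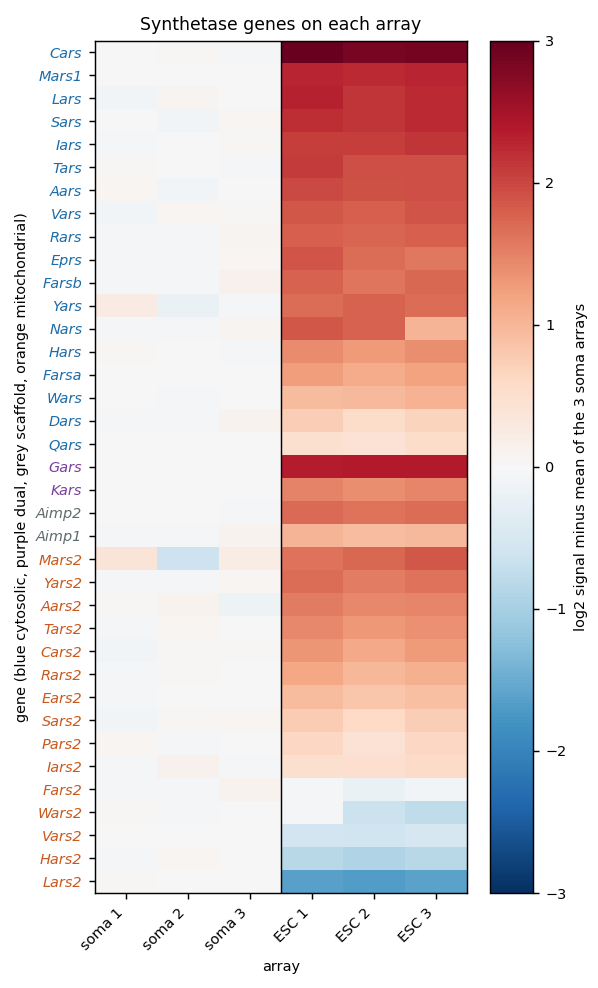
Each tested gene reported by name (rows, names coloured by compartment) on each of the 6 arrays (columns), as the log2 signal less the mean of the 3 soma arrays (colour scale from -3 to 3). The ESC columns are red for every cytosolic, dual and scaffold gene and blue for Lars2, Hars2, Vars2 and Wars2; the uneven cells are Nars on ESC 3, Mars2 on soma 2 and Wars2 on ESC 1.

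The genes whose enzymes serve both compartments rose as well. Gars, for glycine, was at 4.39, 4.41 and 4.39 in soma and 6.76, 6.77 and 6.77 in ESC, a 5.17-fold rise (2.37 ± 0.04, SE, n = 3 per group, limma adjusted p 2.52e-07), with both groups spread by 0.01 (SD), and the rise was 1.69 under quantile normalization. Kars, for lysine, was at 3.61, 3.59 and 3.63 against 5.09, 5.01 and 5.08 (1.45 ± 0.05, SE, limma adjusted p 1.29e-06), and its rise was 0.90 under quantile normalization.

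The scaffold genes followed the cytosolic enzymes in direction. Aimp2 was at 3.14, 3.16 and 3.11 in soma and 4.83, 4.77 and 4.82 in ESC (1.67 ± 0.05, SE, limma adjusted p 7.83e-07, 3.18-fold). Aimp1, whose protein also gives rise to a secreted cytokine, was at 3.23, 3.22 and 3.37 against 4.30, 4.20 and 4.24 (0.97 ± 0.06, SE, limma adjusted p 1.96e-05, 1.96-fold). Under quantile normalization the rises were 1.16 for Aimp2 and 0.50 for Aimp1. The third scaffold gene of the multisynthetase complex, Eef1e1 (also called Aimp3), rose 4.31-fold. Across the 11 genes of the complex, 11 rose, from 0.49 for Qars to 2.27 for Mars1, with a median of 1.71. The 12 cytosolic and dual enzymes outside the complex all rose as well, from 0.98 to 2.89 with a median of 1.78. The split by enzyme class, which follows the fold of the catalytic domain, gave 10 of 10 class I genes higher in ESC (median 1.81) and 10 of 10 class II genes (median 1.62). Under quantile normalization Qars was no longer called, which left 10 of 11 genes of the complex and 9 of 10 of class I.

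The promoters of members that rose together were read for the ATF4 element, because Asns, Trib3 and Chac1, known ATF4 targets, are among the response genes described further on. RefSeq sequence (GRCm38.p6) for the 250 bases before the start was at hand for 29 of the 39 members. The letters TGATGNAA, on either strand, were found in 2 of 11 cytosolic genes (Aars and Tars), 1 of 2 dual genes (Gars), 0 of 14 mitochondrial genes and 0 of 2 scaffold genes, beside 3.9% of 27025 genes with such a window. In the amino acid response list 4 of 13 genes held them, and Trib3 was not among these 4. The matches stood 104 bases before the start in Aars (chr8:111033690-111033777, plus strand), 7 in Tars (chr15:11399659-11399713, minus strand), 22 in Gars (chr6:55037931-55038000, plus strand) and, for reference, 15 in Asns (chr6:7693210-7693272, minus strand) and 185 in Chac1 (chr2:119351009-119351096, plus strand). The lines give each window 5′ to 3′ on the gene's strand, with the matched letters or their reverse complement in capitals.
Aars: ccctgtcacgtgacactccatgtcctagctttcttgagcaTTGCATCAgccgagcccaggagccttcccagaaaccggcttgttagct
Tars: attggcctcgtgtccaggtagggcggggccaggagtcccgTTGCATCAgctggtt
Gars: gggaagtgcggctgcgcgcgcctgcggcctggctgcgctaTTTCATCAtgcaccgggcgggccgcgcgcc
Asns: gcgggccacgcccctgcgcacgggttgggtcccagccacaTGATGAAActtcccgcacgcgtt
Chac1: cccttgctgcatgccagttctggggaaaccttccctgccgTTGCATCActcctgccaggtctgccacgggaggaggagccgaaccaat

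Aars, Tars and Gars, which carry these letters, rose 3.82-fold, 3.96-fold and 5.17-fold, and Iars, without them in this window, rose 4.25-fold. Whether the letters have a part in these rises was not tested. The E-box letters CACGTG, which MYC and MAX family factors bind and which read the same on both strands, were in 3 of 11 cytosolic genes (Aars, Farsb and Iars) and 0 of 14 mitochondrial genes, beside 6.9% of all genes with a window. In Aars they lie within the window printed above, in lower case, and do not overlap the capitals. The matches of Farsb (chr1:78488898-78488976, minus strand, 33 bases before the start) and Iars (chr13:49682021-49682106, plus strand, 63 bases before it) are in capitals here.
Farsb: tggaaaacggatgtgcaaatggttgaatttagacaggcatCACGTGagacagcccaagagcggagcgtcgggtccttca
Iars: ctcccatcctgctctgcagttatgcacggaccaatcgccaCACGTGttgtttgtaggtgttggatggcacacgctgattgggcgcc

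The letters CCGGAAGT, which ETS family factors bind, were read on either strand as well. They stood in 2 of 11 cytosolic genes (Farsa and Mars1) and 1 of 2 scaffold genes (Aimp1). The dual genes had them in 0 of 2 and the mitochondrial genes in 0 of 14, beside 3.2% of all genes with a window. The letters of the factor NRF1 were the only others searched. They stood in 1 of 11 cytosolic genes (Tars), 1 of 2 dual genes (Kars), 0 of 2 scaffold genes and 0 of 14 mitochondrial genes, beside 4.2%. None of the promoter counts was tested against the share of all genes. With shares this low, 0 of 14 does not set the mitochondrial genes apart. A match is a string of letters and no measurement of binding, and its absence says only that these letters are not in this window.

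The mitochondrial enzymes were mixed. Of 16 tested, 11 rose in ESC (6 at least 2-fold), 4 fell there and 1 missed the threshold, with a median difference of 0.80, 0.66 above that of all genes. Mars2, for methionine, was at -3.69, -4.69 and -3.86 in soma and -2.44, -2.35 and -2.22 in ESC (1.74 ± 0.27, SE, n = 3 per group, limma adjusted p 0.00112). This was the largest fitted rise, but it did not keep that rank. Soma 2 was the lowest array, and without it the difference was 1.44 (adjusted p 0.000118), below Yars2 (1.60) and Aars2 (1.54). Under normexp background correction it was 1.13, below Yars2, Aars2, Tars2 and Cars2 (1.17 to 1.53).

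Yars2, for tyrosine, was steadier, at 0.37, 0.37 and 0.47 in soma and 2.08, 1.94 and 2.03 in ESC (1.61 ± 0.06, SE, limma adjusted p 2.17e-06, 3.06-fold). Aars2, for alanine, was at -0.16, -0.10 and -0.35 against 1.36, 1.23 and 1.27 (1.49 ± 0.08, SE, limma adjusted p 9.31e-06). Tars2, for threonine, was at 2.78, 2.89 and 2.85 against 4.29, 4.15 and 4.21 (1.37 ± 0.06, SE, limma adjusted p 3.42e-06). In all 3 genes the ESC arrays lay more than 1 log2 unit above the soma arrays. Cars2, for cysteine, was at -0.91, -0.79 and -0.81 against 0.49, 0.31 and 0.45 on its brighter probe (1.26 ± 0.07, SE, limma adjusted p 9.64e-06), while its other probe moved less, from -2.25 to -1.81.

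Smaller rises among mitochondrial genes were 2.1-fold for Rars2 (arginine), 1.87-fold for Ears2 (glutamate), 1.63-fold for Sars2 (serine), 1.47-fold for Pars2 (proline) and 1.44-fold for Iars2 (isoleucine). In Rars2 the soma arrays read 1.92, 1.98 and 1.95 and the ESC arrays 3.12, 2.94 and 3.01 (1.07 ± 0.06, SE, limma adjusted p 1.2e-05).

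The 4 genes that went against the majority were Lars2, Hars2, Vars2 and Wars2. Lars2, the mitochondrial leucine enzyme, was at 0.97, 0.92 and 0.93 in soma and -0.70, -0.74 and -0.66 in ESC, a 3.11-fold fall (-1.64 ± 0.05, SE, n = 3 per group, limma adjusted p 8.94e-07), and it was the only member higher in soma by at least 2-fold. It rests on 1 probe. Hars2, for histidine, was at 1.72, 1.81 and 1.73 against 0.91, 0.84 and 0.91 (-0.87 ± 0.05, SE, limma adjusted p 1.55e-05). In people, inherited defects of HARS2 and LARS2 both cause Perrault syndrome, which joins hearing loss to ovarian failure.

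Hars and Hars2 are also neighbouring genes, the only members whose spans overlap on the genome (GRCm38.p6). They moved in opposite directions, Hars up 2.56-fold and Hars2 down 1.82-fold in ESC. Vars2, for valine, was at -0.58, -0.55 and -0.54 in soma and -1.14, -1.16 and -1.06 in ESC (-0.56 ± 0.05, SE, limma adjusted p 8.6e-05), but its second probe, at -2.45 and -2.57, did not pass (limma adjusted p 0.316 over all kept probes).

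Wars2, for tryptophan, was at -1.45, -1.53 and -1.50 in soma and -1.55, -2.14 and -2.26 in ESC, with ESC 1 close to the soma arrays. Its difference of -0.49 ± 0.19 (SE, limma adjusted p 0.0499) only just passed. It missed the threshold without soma 1, soma 2, soma 3, ESC 2 or ESC 3 (adjusted p 0.115, 0.0948, 0.104, 0.136 and 0.131) and was -0.70 (adjusted p 0.000318) without ESC 1. A dimmer Wars2 probe fell from -3.84 to -4.76 (limma adjusted p 0.00495 over all kept probes). Fars2, the mitochondrial phenylalanine enzyme, was at 2.09, 2.07 and 2.23 in soma and 2.06, 1.94 and 2.05 in ESC, a difference of -0.11 ± 0.07 (SE, limma adjusted p 0.172) that was 0.08 under scaling to the array median, and -0.35 and -0.34 under quantile normalization and spike-in scaling, where it passed.

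For 17 of 18 amino acid pairings both the cytosolic and the mitochondrial gene were measured, and the ratio of the 2 signals on an array does not depend on a scaling factor of that array. Eprs and Fars2 each enter 2 pairings, and the asparagine pair was left out with Nars2. Only the change of a ratio between groups is read, since its level carries the brightness of both probes. The ratio was higher on all 3 ESC arrays than on all 3 soma arrays in 14 of 17 pairs. Among single genes 87.1% did not overlap, a share that takes both directions and is no baseline for ratios in 1 direction. A lack of overlap was thus common on these arrays and is by itself no result about the pairs. The median change of the ratio was 1.30 on the log2 scale. With 3 arrays against 3 an exact two-sided permutation test cannot go below 0.1, the value of these 14 pairs, so no single pair could pass 0.05.

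The leucine pair changed most. Lars over Lars2 was 1.46, 1.69 and 1.60 in soma and 5.54, 5.39 and 5.42 in ESC, a 14.6-fold change of the ratio, in which Lars rose by 2.23 and Lars2 fell by 1.64. The valine ratio changed 5.33-fold, from 0.66, 0.77 and 0.74 to 3.16, 3.13 and 3.12, and the histidine ratio 4.67-fold, from -1.03, -1.18 and -1.12 to 1.13, 1.09 and 1.11. In these 3 pairs the mitochondrial gene was lower in ESC while its cytosolic counterpart was higher.

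Tyrosine (ratio change 0.09, exact permutation p 0.6) and methionine (0.53, exact permutation p 0.3) overlapped between the groups. For methionine the overlap came from soma 2, at 4.74 beside 3.75 and 3.90 on the other soma arrays and 4.79, 4.63 and 4.54 in ESC. The tyrosine change turned to -0.35 under normexp background correction, and no other pair changed sign under another scaling or normexp. The differences of the 2 genes of a pair were weakly related across the 17 pairs (Pearson's r 0.25, Spearman's rho 0.29), a description over genes read on the same 6 arrays.

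**Figure D3:**
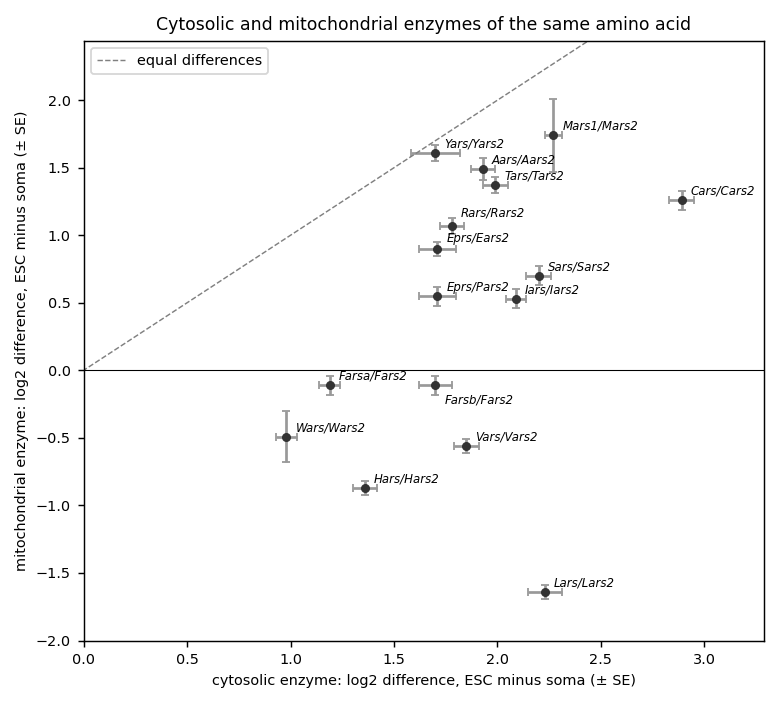
For each pair reported by name, the log2 difference, ESC minus soma, of the cytosolic enzyme (x axis) and of the mitochondrial enzyme (y axis), with bars of 1 SE and a dashed line where both are equal. Every point plotted lies below the line, Yars/Yars2 within 1 SE of it, and the 5 mitochondrial genes below 0 are Lars2, Hars2, Vars2, Wars2 and Fars2, the last of which did not pass and is at 0.08 under scaling to the array median.

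**Figure D4:**
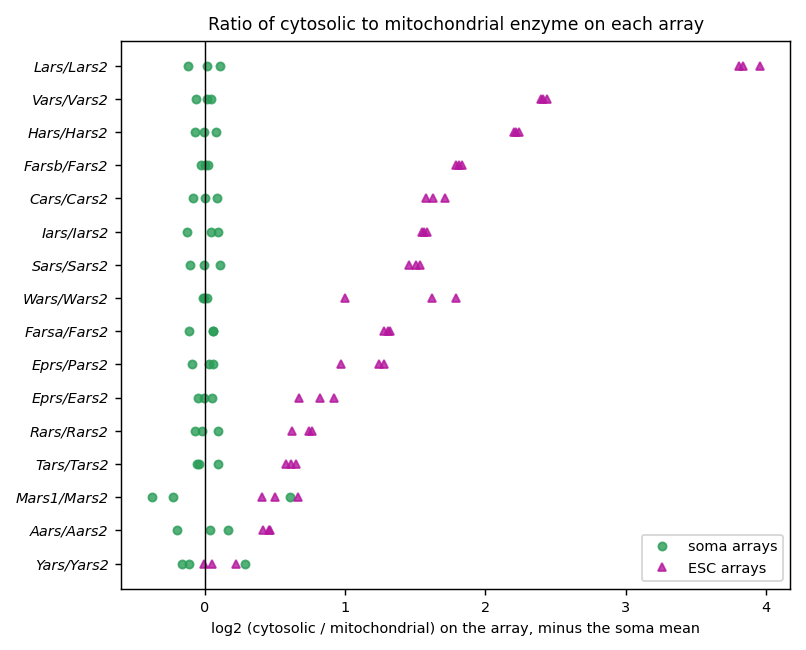
The log2 ratio of cytosolic to mitochondrial signal on each array, less its soma mean (x axis), for each pair reported by name (y axis), with soma arrays as circles and ESC arrays as triangles. The ESC triangles lie to the right of all soma circles in 14 pairs and among them for Mars1/Mars2 and Yars/Yars2; the mean change is largest for Lars/Lars2, at 3.87.

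Taken over the whole groups, the median signal of the cytosolic enzymes less that of the mitochondrial ones was 1.79, 1.66 and 1.84 on the soma arrays against 2.65, 2.55 and 2.55 on the ESC arrays. Means were 1.77 ± 0.09 and 2.58 ± 0.06 (SD, n = 3 each), a gap that was wider by 0.82 in ESC with no overlap. The median member stood 1.85, 1.77 and 1.76 above its soma mean on the ESC arrays among cytosolic enzymes, and 0.85, 0.72 and 0.82 among mitochondrial ones. The soma arrays lay within 0.03 of 0 in both groups. On the slide that soma 3 shared with the ESC arrays, where soma is 1 array, the median differences were 1.72 and 0.71 and the gap was wider by 0.74, values with no test.

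Brightness moved with direction on these arrays. When the genes tested were ranked by mean signal and cut into 4 bins of equal size, the median difference was 0.53 in the brightest bin, 0.10 and -0.13 in the next ones and -0.28 in the dimmest. The brightest bin held 10 cytosolic and 3 mitochondrial enzymes, at medians of 1.96 and 1.07. The next bin held 5 and 10, at medians of 1.71 and 0.80. In both bins the cytosolic enzymes had the higher median, and the other bins held 3 cytosolic and 3 mitochondrial genes together. The ESC signal itself enters this ranking, and the part of brightness in the gap between the compartments was not tested.

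The choice of scaling shifted the whole comparison. Relative to the 75th percentile, the median of all genes shifted by 0.196 under scaling to the array median, by -0.121 under quantile normalization and by -0.223 under spike-in scaling. The cytosolic enzymes were higher in ESC in 18 of 18 under each of these but quantile normalization (17, with Qars at 0.01), and the mitochondrial enzymes in 11 of 16 under all 3, with 3, 4 and 5 higher in soma. In the order of these scalings, the split of all calls was 61.0%, 50.8% and 47.4% higher in ESC, beside 54.9% with the 75th percentile.

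Genes around the synthetases were read in 7 lists, each count to be set beside the 46.6% of all genes that were higher in ESC. That share moved with brightness, from 33.8% in the dimmest bin to 67.5% in the brightest, and the lists were not matched for it. Relatives and proofreading factors gave 5 of 8 that rose in ESC, 2 that fell (Ptrh2 and Tarsl2) and 1 below the threshold, with a median of 1.11. Eef1e1 was at 0.23, 0.27 and 0.36 in soma and 2.49, 2.32 and 2.37 in ESC (2.11 ± 0.07, SE). Dtd2, a deacylase that removes D-amino acids and wrongly placed alanine from tRNA, was at -0.93, -0.89 and -0.91 against 1.09, 1.05 and 1.16 (2.01 ± 0.05, SE). Ptrh2, whose protein is a peptidyl-tRNA hydrolase of mitochondria, fell by 1.07. Prorsd1 stood at 0.16 and did not pass, and it was -0.54 under quantile normalization. Tarsl2, at -0.39, did not pass under scaling to the array median (-0.20).

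Mammalian mitochondria have no glutamine enzyme of their own and make that tRNA by amidation, through Qrsl1, Gatb and Gatc, and they formylate the initiator with Mtfmt. Of these 4 genes 2 rose, 1 fell and 1 did not pass (median 0.32), a count near the share of all genes higher in ESC, 46.6%. Qrsl1 was at -1.07, -1.0 and -1.31 in soma and -0.27, -0.36 and -0.34 in ESC (0.81 ± 0.09, SE), and Gatb rose by 0.62 ± 0.05 (SE). Gatc stood at -0.35, but missed the threshold at -0.15 with array median scaling, and Mtfmt at 0.03, with a sign that turned under quantile normalization and spike-in scaling.

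Selenocysteine is made on its own tRNA after that tRNA is charged with serine. Of 7 genes of that route 6 rose (median 0.95) and Sephs1 did not pass, at -0.03 and 0.17 under scaling to the array median. Sephs2, which makes the selenium donor, was at -4.34, -3.95 and -3.79 in soma and -1.33, -1.42 and -1.42 in ESC (2.64 ± 0.14, SE). Sepsecs, which places the selenium, was at -4.33, -4.41 and -4.46 against -2.63, -2.50 and -2.62 (1.82 ± 0.06, SE). Both were dim on all arrays, and with normexp they stood at 1.88 and 1.09.

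Factors that bring charged tRNA to the ribosome, or move it along, were compared between compartments as well. Among cytosolic elongation factors 7 of 7 tested rose with a median of 0.97, but under quantile normalization 5 rose, Eef1a1 went from 0.40 to -0.32 and Eef2 did not pass. Eif5a, which helps the ribosome through proline stretches, was at 3.29, 3.33 and 3.39 against 5.51, 5.45 and 5.51 (2.16 ± 0.05, SE), and Eef1d at 5.25, 5.19 and 5.35 against 6.53, 6.43 and 6.59 (1.25 ± 0.07, SE, but 0.54 under quantile normalization). Among 10 mitochondrial translation factors 6 rose (46.6% of all genes did), Guf1 (-1.17) and Mtrf1l (-0.71) fell and 2 did not pass, with a median of 0.58. Under quantile normalization 7 of the 10 rose and 3 fell. There the medians came in the reverse order, at 0.47 for the cytosolic and 0.54 for the mitochondrial factors. Tsfm, the exchange factor of the mitochondrial elongation factor, was at -0.70, -0.60 and -0.54 against 1.22, 1.20 and 1.22 (1.82 ± 0.06, SE), and Gfm2, which takes part in ribosome recycling, at 0.17, 0.23 and 0.23 against 1.94, 1.87 and 1.93 (1.70 ± 0.05, SE). The groups of these 4 named genes did not overlap.

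Of 20 genes of tRNA processing and export 16 rose, 3 fell (Elac1, Tsen34 and Tsen15) and 1 did not pass (Hsd17b10, at -0.09), with a median of 1.0. Under scaling to the array median Tsen34 and Tsen15 did not pass and Hsd17b10 stood at 0.11, and under quantile normalization Tsen34 went from -0.37 to -1.02. Nsun2, which methylates cytosines of tRNA, was at 2.07, 2.14 and 2.14 in soma and 4.42, 4.23 and 4.26 in ESC (2.19 ± 0.07, SE). Xpot, the nuclear export receptor of tRNA, was at 1.24, 1.23 and 1.09 against 2.87, 2.73 and 2.79 (1.61 ± 0.07, SE). The RNase Z genes, which trim the 3′ end of precursors, split by 2-fold each way: Elac2 rose 2.07-fold and Elac1 fell 2.08-fold.

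The amino acid response list, to which many synthetase genes are linked through ATF4, moved most. Of 14 tested genes 13 rose, 10 by at least 2-fold, and Eif2ak4, the kinase GCN2 that senses uncharged tRNA, fell by 0.64 ± 0.06 (SE); the median was 2.18, and 11 rose under quantile normalization. Chac1, which degrades glutathione, was on no soma array well above background and at 3.35, 3.35 and 3.26 in ESC. The ESC mean was 362-fold above a floor. That floor is, on each soma array, the lowest signal well above background, or the gene's own if higher. It is no upper limit of the soma signal, so the fold is no strict bound. The fitted difference of Chac1 under normexp, 6.62, fell short of it. Trib3, a pseudokinase that restrains ATF4, was at -1.25, -1.01 and -1.41 against 4.13, 4.03 and 4.07 (5.30 ± 0.11, SE). Asns, which makes asparagine, was at 1.80, 1.80 and 1.61 against 6.07, 6.06 and 6.16 (4.36 ± 0.07, SE).

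The transcription factor itself moved less than these targets. Atf4 was at 5.54, 5.60 and 5.74 in soma and 6.69, 6.70 and 6.67 in ESC, a 2.08-fold rise (1.06 ± 0.06, SE, n = 3 per group, limma adjusted p 1.5e-05) that was 0.32 under quantile normalization, and its protein is known to be set mainly by translation, which these arrays do not measure. Ddit3, the stress gene also called CHOP, rose 1.8-fold, from -1.06, -1.27 and -1.04 to -0.30, -0.25 and -0.28. In both genes the ESC arrays lay above all soma arrays.

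**Figure D5:**
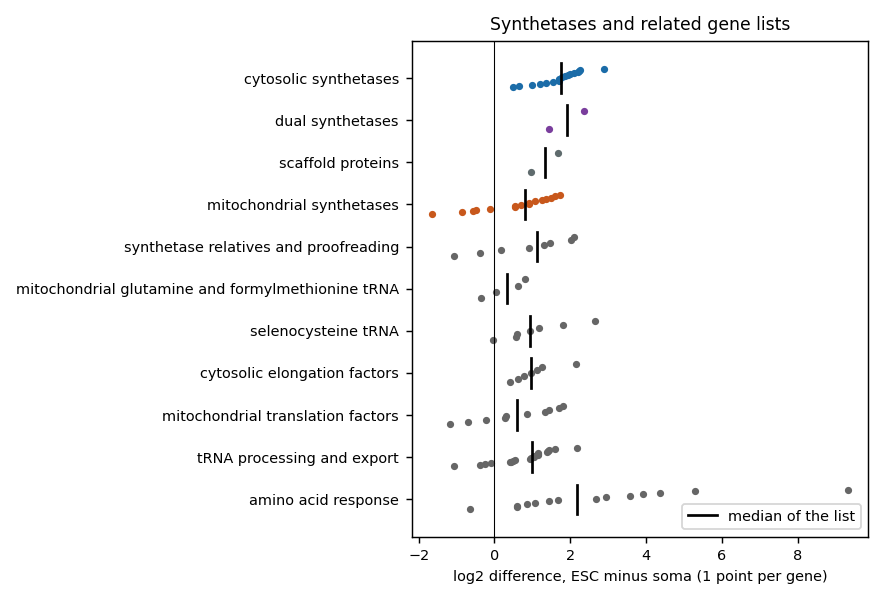
The log2 difference, ESC minus soma (x axis), of each tested gene (1 point per gene) of the synthetase groups and the 7 related lists (y axis), with a black bar at each list's median. The medians run from 0.32 for the mitochondrial glutamine and formylmethionine genes to 2.18 for the amino acid response; the point furthest to the right is Chac1, which was above background on no soma array, so its plotted value of 9.32 is no bound, and the genes whose sign turns under another scaling are Fars2, Eef1a1, Prorsd1, Mtfmt, Sephs1 and Hsd17b10.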

How the data were processed

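RNA of 6 samples was labelled with Cy3 and hybridised to 1-colour Agilent mouse arrays, per the labels' protocols. The processed signal is an intensity made by Feature Extraction 10.7.3.1 with background subtraction and detrending inside the array and no scaling across arrays, per the file headers. A deposited series matrix gives log2 values. Subtracting the 75th percentile of the array and then the median of the probe from the log2 processed signal returned them for 100.00% of 39414 probes within 0.01 (r 1.0000), which settles its scale, centring and direction. Its columns had medians of 0.055, -0.250 and -0.065 (soma) and 0.161, -0.088 and 0.063 (ESC).

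The log2 signal less each array's 75th percentile was used. Spots of a probe were averaged, and 1377 control spots and 15 probe values with outlier marks were left out. From 39429 gene probes the 24153 were kept that stood well above background on every array of 1 group or both. Symbols came from matching transcript identifiers to a RefSeq gene table (GRCm38.p6, 66.1% of probes). Its coordinates were not used to place probes, since the array's grid is on an earlier build, but they gave the neighbouring genes. A gene is its brightest kept probe. ESC minus soma was tested by limma 3.58.1 (R 4.3.3) over 19673 genes (Benjamini-Hochberg, two-sided, threshold 0.05), of which 16712 passed. Soma and ESC arrays correlated at 0.786 to 0.800 and arrays of 1 group at 0.994 to 0.995. On data simulated for this comparison (19673 genes, 50 changed at each size), limma recovered 4% of genes at a log2 difference of 0.25, 48% at 0.5, 70% at 1 and 96% at 2, with 6 false calls. Far fewer genes were changed there than the 16712 that passed in the data, which makes the adjusted cut of the simulation stricter. Its recovery and false calls therefore do not carry over to the data.

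The members and lists were chosen with earlier results of these data known. Full statistics are given for the 6 largest differences in each compartment, members against their compartment's majority and the pairs with the largest and smallest ratio change. From each related list the 2 largest differences are given, with Asns, Atf4, Ddit3, Trib3 and Chac1 by name. Other genes were named after their values were seen. Some genes that enter the counts and medians, and the pair with the smallest ratio change, are not reported here. P-values rest on the labels' naming of samples as biological replicates. Alternatives changed the scaling, background correction (normexp, offset 50, on median signals), filter, probe choice, source, variance model, slide, scan or replicate block, and each array left out.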

Additional observations from a re-analysis of the deposited data

How the results depend on the processing

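Across 18 alternatives for each of 38 members, 671 of 684 values kept direction and side of the threshold, 10 lost their call, 2 gained one and 1 reversed. The cytosolic count stayed at 17 or 18, the mitochondrial at 11, the pairs at 13 to 16, and all genes called at 13669 to 17688. The median difference of the cytosolic enzymes (1.75) was 1.94 with array median scaling, 1.57 after quantile normalization, 1.52 with spike-in scaling and 1.65 with normexp. That of the mitochondrial enzymes (0.80) was 1.0 under array median scaling, 0.58 under spike-in scaling, 0.70 with no filter and 0.71 with the slide as a block. The widening of the gap between them (0.82) was 0.56 under quantile normalization, 1.02 under normexp, 0.74 with no filter, 0.91 with the mean of a gene's probes, 1.02 in the probe-centred series matrix and 0.74 with the slide as a block. Leaving out each array gave 1.73 to 1.80, 0.75 to 0.84 and 0.77 to 0.86. Fars2 reversed, to 0.08 under array median scaling. The call of Wars2 was lost in 9 alternatives, with adjusted p up to 0.198, and that of Qars under quantile normalization. The causes were not tested.

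Replicate numbers did not pair the samples (correlations of same-numbered deviations of -0.05, 0.07 and 0.03). With the replicate block 16479 genes passed, and 18 cytosolic and 11 mitochondrial members were higher in ESC. With the scan as a random block 16801 passed, but each scan holds arrays of 1 group, so this block cannot take a scan effect out of the difference. Low signal over background limits Mars2 and Yars, whose soma arrays spread by 0.54 and 0.23 (SD), and Nars2, which could not be tested.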
